A study of Mus musculus with 6 samples.

Results

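The TALE homeobox factors of the Meis, Pbx, Pknox and Tgif families were examined in sorted cells of the mouse Atoh1 lineage. The members were all probe sets that the platform's gene table assigns to a single symbol among Meis1, Meis2, Meis3, Pbx2, Pbx3, Pknox1, Pknox2, Tgif1 and Tgif2, which gave 21 of the 45101 probe sets on the array, for 9 genes. Gene expression was measured on 6 Affymetrix Mouse Genome arrays, 3 for each of 2 groups. In both groups Swiss Webster embryos carried Atoh1-CreER, a tamoxifen-inducible Cre recombinase driven from Atoh1, together with the RCE reporter, which expresses EGFP once Cre has acted. The late group was labelled by tamoxifen (4 mg per 35 g of dam, by oral gavage) at E13.5 and the early group at E10.5, and EGFP-positive cells of rhombomere 1 and the isthmus were sorted at E14.5 in both. The reporter marks every cell in which Cre was active around dosing, and its descendants, so each sample is a mixture. The day of labelling and the interval before collection differed together and cannot be told apart. How many embryos or litters went into a sample is not given in the sources used here, so the p-values cover the variation among these arrays alone. How far that variation is technical is not known, though sex-linked signals set replicate 3 of each group apart from the other 2.

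TALE proteins carry a homeodomain with 3 extra amino acids in the loop between its first and second helices. Pbx proteins bind DNA together with Hox and Engrailed proteins, and Meis and Pknox (Prep) proteins bind Pbx and join these complexes, which set hindbrain identity in vertebrate embryos. Tgif proteins share the homeodomain type but act mainly as repressors, including of genes activated through Smad proteins. In the developing cerebellum Meis1 is found in the granule cell lineage, and Meis2 is among the markers of rhombic lip neurons that settle in the cerebellar nuclei.

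Array medians lay between 97.5 and 111 units in the late arrays, 99.9 and 111 units in the early arrays. Pairs of late arrays correlated with a Spearman rho of 0.938 to 0.945 and pairs of early arrays with 0.874 to 0.893, so the early arrays resembled each other less. For Actb, the signal at the 3′ end was 12.9 to 16.1 times that at the 5′ end in the late arrays. In the early arrays it was 17.4 to 26.2 times. For Gapdh the ranges overlapped, with 9.47 to 12.1 times in the late arrays, against 10.6 to 13.2 times in the early arrays. These ratios bear on RNA quality. Atoh1 stood at 6819 to 9733 units in the late arrays, against 397 to 936 units in the early arrays, in the direction that the labelling gives by itself. Late replicate 3 had Xist without the Y-linked Eif2s3y (19797 and 14.1 units), early replicate 3 had the reverse (166 and 1772 units), and the other 4 arrays had both. The markers were fixed as lists. Over all tested probe sets 12.5% passed (limma adjusted p under 0.05) toward the late and 13.4% toward the early group. All 5 cycling markers on the array passed with higher signals in the late group, with summed signals of 35410 to 37189 units in the late arrays, against 3860 to 5111 units in the early arrays. Of 6 granule cell lineage markers 5 passed, all higher in the late group, with sums of 57742 to 62584 units in the late arrays, against 23111 to 30223 units in the early arrays. Atoh1, whose direction the labelling gives, is among these 5 and is part of the sums. Of 6 markers of postmitotic neurons 3 passed, all higher in the early group, with sums of 31212 to 34284 units in the late arrays, against 55644 to 59231 units in the early arrays. Of 6 GABAergic markers on the array 4 were tested and 3 passed, all higher in the early group, with sums of 409 to 655 units in the late arrays, against 1840 to 3299 units in the early arrays; Ptf1a and Lhx5 lay below the array median on 5 of 6 arrays. Of the other lists, glia had 4 tested markers (2 passed toward the late and 1 toward the early group), microglia 1 (Csf1r, toward the early group), endothelium 2 and mesenchyme 1 (none passed), and red blood cells none. Summed signals were 1426 to 1816 units in the late arrays, against 1041 to 1349 units in the early arrays, for glia, and 163 to 282 units in the late arrays, against 354 to 852 units in the early arrays, for microglia, whose Aif1 and C1qa stayed below every array's median. No marker was at 0. In bulk samples such as these, fewer cells of a type and less RNA per cell cannot be told apart. The part of these mixtures, of RNA quality and of sex in the differences given next was not tested.

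Members of the TALE class differed in both directions. Meis2 was 11.9- to 16.3-fold lower in the late than in the early cells on all 4 of its probe sets, while Tgif1 and Tgif2 were 4.97- and 3.65-fold higher in the late cells. Meis1 was 1.94- and 2.31-fold higher in the late cells on 2 of 3 probe sets, and Pbx3 and Pknox2 were 1.87- and 1.71-fold lower on 1 probe set each. Meis3, Pbx2 and Pknox1 did not pass. Probe sets above the array's median on at least 3 arrays were tested with limma on log2 signals, and a call needed a Benjamini-Hochberg adjusted p under 0.05 over all 23491 tested probe sets. Of the 21 members 18 were tested: 4 passed with higher signals in the late group, against a background of 12.5% of all tested probe sets, 6 passed with higher signals in the early group, against 13.4%, and 8 did not pass. In either direction 10 of 18 passed, against 25.9% of all tested probe sets, but 4 of the 10 belong to 1 gene. The median log2 difference, late minus early, was -0.47 over the tested members and 0.09 over all tested probe sets. The 3 arrays of each group did not overlap in 15 members, 6 toward the late and 9 toward the early group, against 24.8% and 22.1% of all tested probe sets, or 46.9% in either direction. The 6 calls of Meis2, Tgif1 and Tgif2 held under all 18 alternatives that were run, among them the loss of any 1 array. The calls of Meis1, Pbx3 and Pknox2 did not. Without late replicate 1, 2 or 3, and without late replicate 3 and early replicate 3 together, 6 members passed in each case. Of these 6, 2 were toward the late and 4 toward the early group. Late replicate 3 and early replicate 3 each had the signals of 1 sex, opposite between them.

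**Figure D1:**
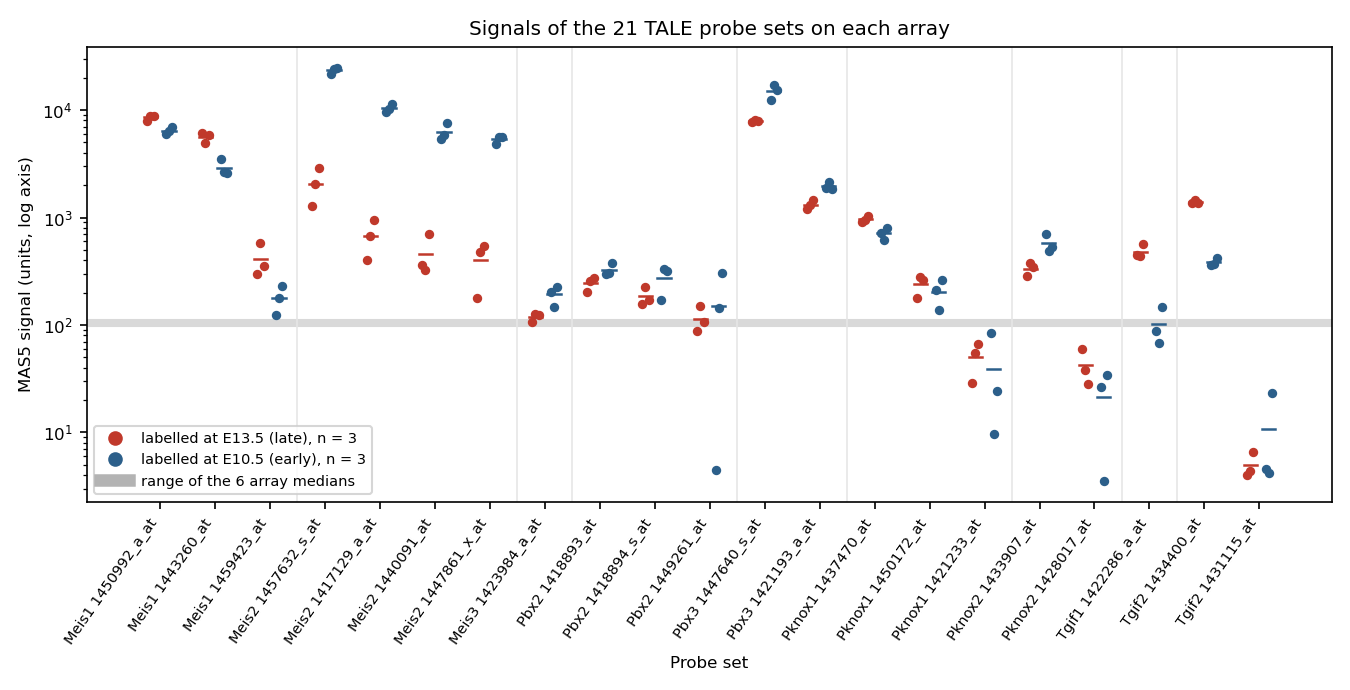
MAS5 signal (units, log axis) of each of the 21 probe sets, with the 3 late arrays left of the 3 early arrays, a bar at each group's mean and a grey band for the range of the 6 array medians. All 4 Meis2 probe sets sit far lower in the late arrays, Tgif1 and the brighter Tgif2 probe set sit higher there, and the last Pknox1, Pknox2 and Tgif2 probe sets lie below the band.

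Meis2, a partner of Pbx and Hox proteins, showed the largest differences among the members. Its brightest probe set, 1457632_s_at, read 1284, 2046 and 2887 units on the late arrays, against 21477, 24190 and 24820 units on the early arrays. Every early array was far above every late array, and the late arrays differed more among themselves in proportion. The late minus early difference was -3.58 ± 0.32 on the log2 scale (SE; limma adjusted p = 0.00164; 95% interval -4.34 to -2.81). Probe set 1417129_a_at read 405, 674 and 951 units on the late arrays, against 9682, 10156 and 11408 units on the early arrays, a difference of -4.03 ± 0.33 (limma adjusted p = 0.00143). Probe set 1440091_at read 360, 323 and 703 units on the late arrays, against 5405, 5917 and 7531 units on the early arrays, a difference of -3.84 ± 0.34 (limma adjusted p = 0.00164). The groups were again wholly apart on both. The fourth, 1447861_x_at, read 178, 476 and 548 units on the late arrays, against 4800, 5669 and 5645 units on the early arrays, a difference of -3.90 ± 0.44 (limma adjusted p = 0.00274). The suffixes _s_at and _x_at mark probe sets whose probes can match other transcripts, and the 2 Meis2 probe sets without these suffixes gave -4.03 and -3.84. Late signals stayed above the array median on every probe set. The lowest, 178 units for 1447861_x_at on late replicate 1, stood at percentile 59.5 of that array. No detection calls were given, so how far it lay above background is not known. Late replicate 3 was the highest late array on all 4 Meis2 probe sets. Of the 6 markers of postmitotic neurons, Stmn2, Tubb3 and Map2 passed with differences of -1.24, -1.16 and -1.14. Snap25, Syt1 and Rbfox3 did not pass, with -0.56, 0.04 and 0.71. Of the 4 tested GABAergic markers, Calb1, a calcium-binding protein of Purkinje and other GABAergic cells, had the largest difference. It was -3.38, beside -4.03 to -3.58 for Meis2. Gad1 and Gad2 passed with smaller differences of -1.39 and -1.69, and Slc32a1 did not pass, with -1.84. Unlike Meis2, Calb1 lay below the array median on late replicate 3 (88.5 units). Gad2 and Slc32a1 lay below it on late replicates 1 and 3, and Slc32a1 also on early replicate 3. The sizes of these 3 differences therefore rest in part on signals below the median.

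Meis1, a close relative of Meis2 and a factor needed for granule cell development in the mouse, differed in the other direction. Its brightest probe set, 1450992_a_at, read 7965, 8828 and 8806 units on the late arrays, against 5929, 6418 and 6971 units on the early arrays. The groups did not overlap, but the difference of 0.41 ± 0.17 did not pass (limma adjusted p = 0.129; 95% interval -0.0029 to 0.82). Probe set 1443260_at read 6067, 4937 and 5916 units on the late arrays, against 3510, 2643 and 2609 units on the early arrays, a difference of 0.96 ± 0.21 (limma adjusted p = 0.0201). Probe set 1459423_at was dim, with 301, 585 and 352 units on the late arrays, against 123, 177 and 231 units on the early arrays, a difference of 1.21 ± 0.35 (limma adjusted p = 0.0492). All 3 probe sets had every late array above every early array, with log2 differences that ranged from 0.41 to 1.21. The calls of the 2 that passed were lost in 9 and 10 alternatives: without late replicates 1, 2 and 3 the adjusted p was 0.0883, 0.0577 and 0.095 for 1443260_at and 0.0848, 0.143 and 0.127 for 1459423_at. Without early replicate 3 it was 0.0505 for 1443260_at, and without early replicates 1 and 2 it was 0.109 and 0.0911 for 1459423_at. Without late replicate 3 and early replicate 3 together it was 0.157 and 0.121.

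Meis3, a Meis factor that acts in hindbrain patterning in frog and zebrafish embryos, had 1 probe set close to the array medians. It read 106, 127 and 125 units on the late arrays, against 204, 148 and 225 units on the early arrays. The late arrays were all lower, and the difference of -0.67 ± 0.22 did not pass (limma adjusted p = 0.0744), though it did without early replicate 2 (-0.85, adjusted p = 0.0333).

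**Figure D2:**
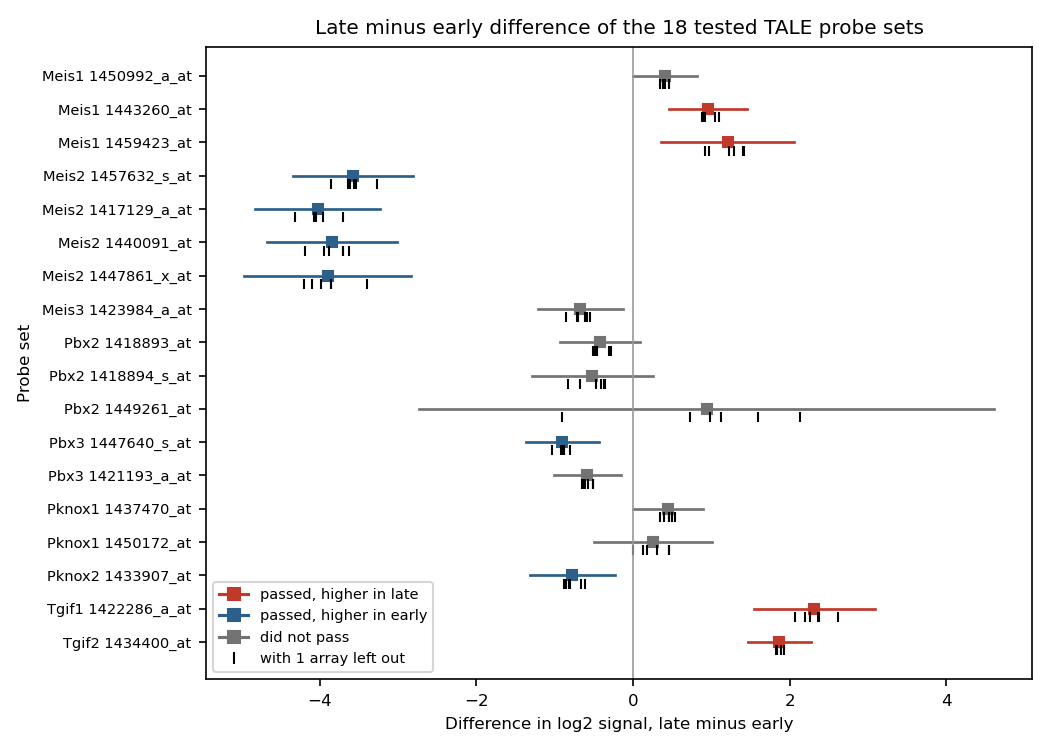
Late minus early difference in log2 signal for the 18 tested probe sets, with 95% intervals as bars and black ticks for the value with any 1 array left out. The 4 Meis2 probe sets lie between -4.03 and -3.58, Tgif1 and Tgif2 at 2.31 and 1.87, and the rest within 1.21 of 0, with a very wide interval for Pbx2 1449261_at.

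The windows around 1 annotated start each of Meis2 and Meis1 are shown because these relatives differed in opposite directions. They are RefSeq windows of build GRCm38.p6, 250 bases before to 50 after the start. The first is the minus-strand window chr2:116064570-116064869 and the second the minus-strand window chr11:19018920-19019219. Both annotated genes extend upstream beyond these windows, to chr2:116067537 and chr11:19019651, and the bases there were not searched. Windows were given for 6 of the 9 members (10 windows). They were searched on both strands for TGACAG, the core bound by Meis and, as its reverse complement, by Tgif proteins, for TGATTGAC, the composite of a Pbx and a Meis site, and for TGATTGAT, the composite of a Pbx and a Hox site. TGATTGAC can overlap TGACAG. Of 32817 windows of this length 19.2% held TGACAG, 0.771% TGATTGAC and 0.747% TGATTGAT. Capitals would mark a match, and neither window holds one.
Meis2: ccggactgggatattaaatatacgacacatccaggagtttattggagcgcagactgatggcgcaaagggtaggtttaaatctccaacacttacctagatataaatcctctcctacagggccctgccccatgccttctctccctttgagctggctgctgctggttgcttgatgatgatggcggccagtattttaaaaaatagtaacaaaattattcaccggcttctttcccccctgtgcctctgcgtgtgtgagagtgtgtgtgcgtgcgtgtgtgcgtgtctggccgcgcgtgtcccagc
Meis1: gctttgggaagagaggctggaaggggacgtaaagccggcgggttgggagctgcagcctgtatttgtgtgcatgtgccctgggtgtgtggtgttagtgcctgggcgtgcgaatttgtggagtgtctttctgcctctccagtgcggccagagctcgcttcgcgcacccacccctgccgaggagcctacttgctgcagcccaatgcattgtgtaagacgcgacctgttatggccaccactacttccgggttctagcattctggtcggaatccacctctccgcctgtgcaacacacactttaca

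Among the Pbx genes, whose proteins are the common partners of Meis, Pknox and Hox proteins, Pbx3 was lower in the late cells. Its call came from 1 of 2 probe sets, and the suffix _s_at of that probe set marks probes that can match other transcripts. Pbx3 is needed in the mouse for normal breathing control by the hindbrain. Its brighter probe set, 1447640_s_at, read 7734, 8164 and 7948 units on the late arrays, against 12392, 17212 and 15388 units on the early arrays. The late arrays lay close together and below all early arrays, and the difference was -0.90 ± 0.19 (limma adjusted p = 0.0196). The other probe set, 1421193_a_at, read 1188, 1301 and 1447 units on the late arrays, against 1882, 2157 and 1851 units on the early arrays, and its difference of -0.58 ± 0.18 did not pass (limma adjusted p = 0.0577). It passed in 3 alternatives, with adjusted p = 0.0462 with signals floored at the array median, 0.027 with a filter at the 70th percentile and 0.0242 with an intensity trend and robust settings. The call of 1447640_s_at was lost in 8 alternatives. The limma adjusted p was 0.0842, 0.0777 and 0.089 without late replicates 1, 2 and 3. It was 0.143 without late replicate 3 and early replicate 3 together.

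Pbx2, a widely expressed Pbx gene without which mice are viable, had 3 probe sets and none passed. Probe set 1418893_at read 202, 259 and 274 units on the late arrays, against 295, 304 and 380 units on the early arrays, with no overlap and a difference of -0.42 ± 0.21 (limma adjusted p = 0.197; 95% interval -0.93 to 0.09). Probe set 1418894_s_at overlapped between the groups, with 157, 226 and 171 units on the late arrays, against 169, 329 and 320 units on the early arrays, a difference of -0.52 ± 0.32 (limma adjusted p = 0.282). Probe set 1449261_at read 87.8, 151 and 106 units on the late arrays, against 4.50, 144 and 304 units on the early arrays. Early replicate 1 alone set the sign of its difference, which was 0.94 ± 1.52 with all arrays (limma adjusted p = 0.681) and -0.90 without that array (adjusted p = 0.183).

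Pknox1 and Pknox2, also called Prep1 and Prep2, bind Pbx proteins as Meis proteins do. Pknox2 was lower in the late cells: 1433907_at read 284, 374 and 346 units on the late arrays, against 708, 486 and 532 units on the early arrays. The groups did not overlap, and the difference was -0.77 ± 0.22, just under the threshold (limma adjusted p = 0.0499). This call was lost in 14 of 18 alternatives. With each array centred on its median the limma adjusted p was 0.054. Without late replicates 1, 2 and 3 it was 0.172, 0.112 and 0.148, and without early replicates 1, 2 and 3 it was 0.0971, 0.0508 and 0.0811. Without late replicate 3 and early replicate 3 together it was 0.188. Pknox1 did not pass on either tested probe set. Its brighter one, 1437470_at, read 907, 958 and 1032 units on the late arrays, against 714, 617 and 799 units on the early arrays, without overlap, a difference of 0.45 ± 0.18 (limma adjusted p = 0.123; 95% interval 0.0052 to 0.89). The other, 1450172_at, read 177 to 278 units on the late arrays, against 138 to 261 units on the early arrays and overlapped. The remaining probe set of Pknox1 (1421233_at) and of Pknox2 (1428017_at) stayed below every array's median and was not tested, with 28.7 to 67.2 units on the late arrays, against 9.69 to 83.8 units on the early arrays for Pknox1, and 28.3 to 60.0 units on the late arrays, against 3.53 to 34.3 units on the early arrays for Pknox2.

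Tgif1 and Tgif2, repressors that recruit histone deacetylases and restrain Smad signalling, were both higher in the late cells. Tgif1, whose loss in humans is linked to holoprosencephaly, a failure of the forebrain to divide, had 1 probe set. It read 444, 435 and 563 units on the late arrays, against 88.3, 67.9 and 147 units on the early arrays. All late arrays were above all early arrays, of which 2 lay below their array's median, and the difference was 2.31 ± 0.32 (limma adjusted p = 0.00491). With signals below the median raised to it, the difference was 2.02. The floor narrows the spread of the early signals, so no p-value is set beside this value. Tgif2 1434400_at read 1368, 1471 and 1358 units on the late arrays, against 364, 368 and 419 units on the early arrays. Both groups were tight and wholly apart, and the difference was 1.87 ± 0.17 (limma adjusted p = 0.00164). The second Tgif2 probe set, 1431115_at, was not tested, with 4.02 to 6.56 units on the late arrays, against 4.17 to 23.5 units on the early arrays. The difference of Mki67, a marker of cycling cells, was 3.47, and those of the 5 cycling markers ran from 2.60 to 3.47, all larger than those of Tgif1 and Tgif2. Tgif1 was the only member with a window that matched a motif: 2 of its 5 windows held TGACAG. That is 2 of the 10 windows searched, beside 19.2% of all windows, and Tgif1 supplied 5 of those 10, so nothing is read from it. The one shown, the minus-strand RefSeq window chr17:70851161-70851460 of GRCm38.p6, has the match in capitals from base 256. A match is a description of these letters, not a binding site.
Tgif1: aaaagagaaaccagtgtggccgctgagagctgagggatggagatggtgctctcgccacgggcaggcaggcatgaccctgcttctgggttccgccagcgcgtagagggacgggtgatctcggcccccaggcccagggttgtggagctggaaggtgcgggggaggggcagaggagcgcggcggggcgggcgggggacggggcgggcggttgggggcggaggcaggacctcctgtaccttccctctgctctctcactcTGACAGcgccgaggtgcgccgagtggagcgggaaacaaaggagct

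The Iroquois genes, TALE relatives that pattern the neural tube along its axis, were lower in the late cells where they passed. Of 5 tested members (6 on the array) 3 passed, all higher in the early group, against 13.4% of all tested probe sets. The median log2 difference was -2.17. Irx3 and Irx5, above the median on all arrays, differed by -3.33 and -2.17. Irx4 averaged 27.6 ± 7.0 units in late cells, against 626 ± 77.5 units in early cells (SD, n = 3). All 3 late arrays lay below their array's median, so Irx4 was tested only through its early signals and its difference is a bound. With signals below the median raised to it, Irx4 was at least 6.06-fold lower in the late cells. The floor replaces the late values and their spread, so no p-value is set beside this bound. The calls of Irx3 and Irx5 held without any 1 array (limma adjusted p up to 0.0119 and 0.0194). That of Irx4 was kept too (limma adjusted p up to 0.0119), but its late signals lay below the median throughout.

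Hox and Engrailed genes, whose proteins bind DNA with Pbx, were mostly dim or did not pass. Of 14 on the array 7 were tested, and 1 passed in each direction. Over all tested probe sets 12.5% passed toward the late and 13.4% toward the early group. The median difference was -0.80 with all arrays and 0.28 without late replicate 1, on which Hoxb3 read 18.1 units, against 1111 and 977 units on the other late arrays, and Hoxa2, Hoxb2 and Hoxa3 were also at their lowest. The median therefore rested on that array, and with floored signals it was -0.20. En2, an Engrailed factor of midbrain and rhombomere 1, averaged 3688 ± 253 units in late cells, against 2134 ± 67.3 units in early cells, a difference of 0.79 ± 0.16 (limma adjusted p = 0.0181). Hoxa5, a factor of the caudal hindbrain and spinal cord, averaged 194 ± 64.2 units in late cells, against 365 ± 18.2 units in early cells (SD, n = 3; limma adjusted p = 0.0498). Without late replicates 1, 2 and 3 the adjusted p of En2 was 0.0801, 0.0655 and 0.0964, and that of Hoxa5 lay between 0.0507 and 0.139 without any 1 array, so both calls were lost.

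Among the partners of Tgif proteins more genes passed toward the late than toward the early group. Of 11 tested genes 5 passed with higher signals in the late group, against 12.5% of all tested probe sets. Smad2 alone, 1 of the 11, passed toward the early group, against 13.4%. The median difference was 0.31 (0.58 without early replicate 2). Rxra, a retinoid receptor whose response element Tgif1 can occupy, averaged 378 ± 58.2 units in late cells, against 148 ± 23.5 units in early cells, a difference of 1.35 ± 0.22 (limma adjusted p = 0.00761). Sin3a, a corepressor scaffold, Hdac1, a histone deacetylase, and Smad4, the shared partner of receptor-activated Smads, differed by 1.15, 0.97 and 0.92. Without any 1 array the call of Rxra held (limma adjusted p up to 0.0473), but it was lost without late replicate 3 and early replicate 3 together (0.0869), while those of Sin3a, Hdac1, Smad4 and Smad3 were lost without late replicate 1, 2 or 3 (up to 0.106, 0.0715, 0.0613 and 0.111) and that of Smad2 without any 1 array except early replicate 3 (up to 0.121). Of 5 tested cofactors of Pbx and Meis none passed in limma, against 25.9% of all tested probe sets, and none had an unadjusted p under 0.05. Pbxip1, a Pbx-interacting protein, differed by 0.66 ± 0.37 and Crebbp, a histone acetyltransferase, by 0.19 ± 0.27.

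Genes placed downstream of Meis factors in other tissues did not move in 1 direction. Of 6 tested 2 passed with higher signals in the late group, against 12.5% of all tested probe sets. Another 3 passed with higher signals in the early group, against 13.4%. The median was -0.82. Pax6, which Meis factors activate in the mouse lens, and Ccnd1, a cyclin downstream of Meis1 in the zebrafish eye, were higher in the late cells by 2.87 and 2.75. Epha8, an Eph receptor downstream of Meis2 in the mouse midbrain, averaged 44.9 ± 9.9 units in late cells, against 183 ± 77.3 units in early cells, with a limma adjusted p of 0.011 (SD, n = 3). All 3 late arrays lay below their array's median. With signals below the median raised to it, Epha8 differed by -0.75 and did not pass (limma adjusted p = 0.097). Myc, also placed downstream of Meis1 in the zebrafish eye, differed by -1.45 ± 0.35. Dcx, the remaining call toward the early group, differed by -1.06 (limma adjusted p = 0.00736). Without any 1 array the calls of Pax6, Ccnd1 and Dcx held (limma adjusted p up to 0.0444 for Dcx). That of Epha8 reached a limma adjusted p of 0.0542 without late replicate 3 and was lost. The call of Myc was lost without any 1 array except late replicate 1 (up to 0.0913). Without late replicate 3 and early replicate 3 together only Pax6 and Ccnd1 held, with Dcx at a limma adjusted p of 0.0781. Pax6 is also 1 of the granule cell lineage markers, and Ccnd1 acts in the cell cycle.

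**Figure D3:**
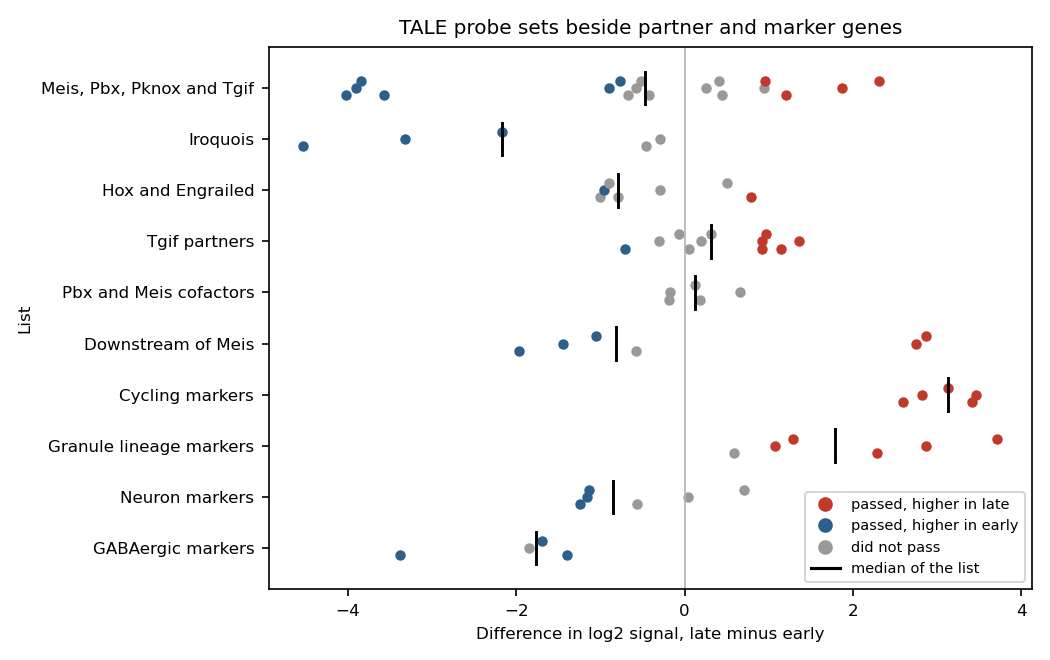
Late minus early difference in log2 signal for the 18 tested TALE probe sets, for the tested genes of 5 partner lists and for 4 marker lists (1 point per gene, black bar at the median). The TALE probe sets spread from -4.03 to 2.31 around a median of -0.47, the Iroquois genes lie at or below -0.30, and the cycling markers lie at 2.60 or above.

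The genes whose profile over the 6 arrays was nearest to each member were found for the 5 genes whose brightest probe set passed, as the smallest root mean square distance between log2 signals, each centred on its own mean. These are descriptions with no test. Nearest to Meis2 were Amer3, a membrane protein of Wnt signalling, Slc8a1, a sodium-calcium exchanger, and Opcml, an adhesion protein of neurons, at distances of 0.20, 0.23 and 0.23. Opcml lay below the array median on late replicates 1 and 2 (78.6 and 105 units). Nearest to Pbx3 were Zfp983, Tomm70a, a mitochondrial import receptor, and Dnajc5, a chaperone of synaptic vesicles, at 0.062, 0.066 and 0.074. Nearest to Pknox2 were Kif3b, a kinesin subunit, Borcs6, a subunit of a lysosome-positioning complex, and Faxc, at 0.063, 0.073 and 0.078. None of these genes passed (limma adjusted p = 0.0789, 0.0673 and 0.0501), and they and Pknox2 were all highest on early replicate 1. Nearest to Tgif1 were Dock5, Espl1, the separase of chromosome segregation, and Col5a2, a fibrillar collagen, at 0.12, 0.13 and 0.16. Nearest to Tgif2 were Mcm8, a helicase of DNA repair, Hmgn5, a nucleosome-binding protein, and Pecr, a peroxisomal enzyme, at 0.079, 0.083 and 0.085. Pecr lay below the array median on every early array (85.3 to 108 units). It was therefore tested only through its late signals, and its nearness to Tgif2 rests on early values below the median.

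**Figure D4:**
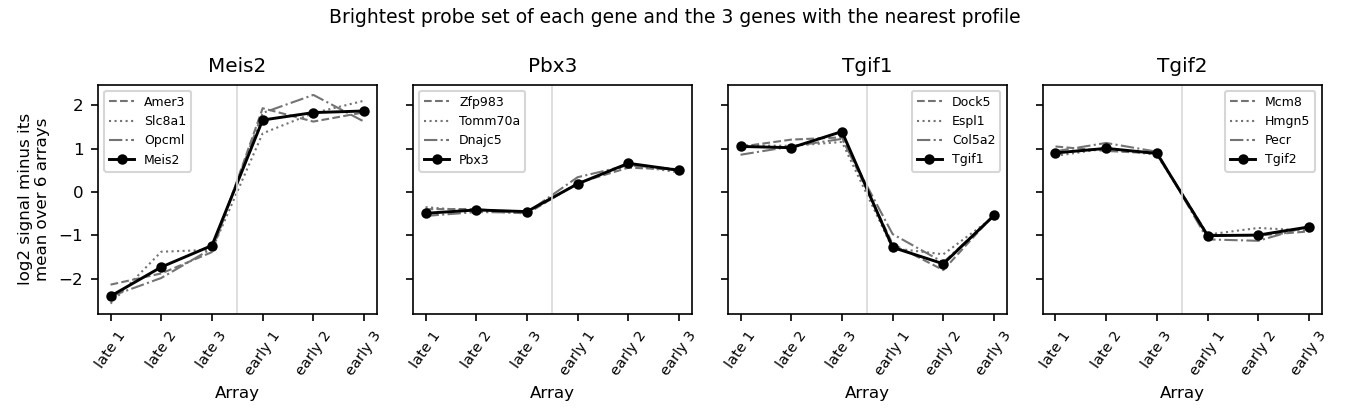
Centred log2 signal of the brightest Meis2, Pbx3, Tgif1 and Tgif2 probe sets (black, points) on the late and early arrays, with the 3 nearest genes as grey lines. Tgif2 is nearly flat within each group, while Meis2 spreads in the late arrays and Tgif1 in the early arrays.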

How the data were processed

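Total RNA of sorted cells was the starting material for the 6 arrays. The deposited intensities are linear MAS5 signals (the tool named by the submitters' processing notes; no version or detection calls were given here), scaled on each array to a trimmed mean of 500, as the values show, with 2% trimmed at each end, so a change in total RNA per cell cannot be read. The 64 control probe sets were left out. Log2 signals were fitted with limma 3.58.1 (lmFit, eBayes) in R 4.3.3, late minus early, two-sided, with Benjamini-Hochberg adjustment over 23491 probe sets above their array's median on at least 3 of 6 arrays. Folds are 2 to the power of the log2 difference, means carry the SD over 3 arrays, and differences limma's SE. All member genes were named. A partner or marker gene was represented by its brightest tested probe set. From each partner list up to 4 genes past the threshold, by size, or 2 where none passed, were named. Of the calls beyond those 4, Smad2, Smad3 and Dcx were also named. The genes nearest in profile had to be tested, 1 per gene, without provisional symbols. Lists, members and tests were chosen with earlier results of these data known. Listed genes without a single-gene probe set were not analysed here. The number of arrays limits the precision.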

Additional observations from a re-analysis of the deposited data

How the results depend on the processing

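With all arrays 6094 probe sets passed, among them 10 members. With the replicate number as a block (replicate block) 3590 probe sets and 6 members passed; same-numbered samples did not deviate together (correlations of -0.03, -0.07 and -0.0052), so the numbers were not taken as pairs. Without a filter 2719 probe sets and 6 members passed, and at an adjusted p of 0.01 2433 and 6. With 1 probe set per gene 5 of 9 members passed, by construction fewer. Leaving out 1 array gave 2698 to 5765 probe sets and 6 to 9 members. Without early replicate 3 and late replicate 3, an alternative added after the data were seen, 1458 and 6 passed; these fits hold fewer samples. The other planned settings kept both counts within 1.5 times: quantile normalization, centring on array medians, an offset of 5.97 units, the floor at the array median, the filter at the 70th percentile, trend with robust settings, array weights, the 2-fold minimum and, for the members, leaving out _s_at and _x_at probe sets. For single members, 269 of 318 values kept direction and side of the threshold, 41 fell short of it, 5 newly passed and 3 turned sign. The turned values, none past the threshold, were Pbx2 1449261_at at -0.55 with floored signals and -0.90 without early replicate 1 (2.18 at most without early replicate 3 and late replicate 3), and Pknox1 1450172_at at -0.000195 without early replicate 2 (0.46 at most, without early replicate 3). The cause was not tested. Leave-one-out fits asked for 2 arrays above the median. Partner genes and list medians under these settings were also added after the data were seen.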
